A study of Arabidopsis thaliana with 12 samples.

Results

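Of the 691 Arabidopsis thaliana genes that had an array probe to themselves, 4 are described here: the histone H3 genes AT1G09200, AT5G65360 and AT1G13370, and the chromatin remodeling gene chr31 (AT1G05490). Each was read on the 1 probe whose annotation names that gene alone, and no gene of the 4 had a second such probe. The study profiled total RNA of wild-type plants of the ecotype Wassilevskija in 12 samples. In 6 of them plants had spent 6 h in MS medium, a salt mixture used to grow plants in culture, with 60 mM sucrose added. The other 6 had been given water, for a time that the labels do not state, so the medium, the sugar and possibly the duration separate the groups. The labels name neither the organ nor the plants' age, and do not say whether replicates are separate plants, so errors describe the spread between these samples only. The 4 genes were chosen by their measured differences between these same groups. Their values are therefore a description, and no p-value is given for them.

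Histone H3 is a core protein of the nucleosome, the spool on which nuclear DNA is wound. Plants carry several H3 classes: H3.1 is made mainly while DNA is being copied and is placed behind the replication fork, and H3.3 replaces it at transcribed genes throughout the cell cycle. The gene table used here lists AT1G09200 and AT5G65360 as H3.1 genes, while AT1G13370 encodes an H3 protein that the table places in neither class. The SNF2-type ATPase encoded by chr31 is also known as CLASSY3. CLASSY proteins help bring RNA polymerase IV to chromatin, the first step of RNA-directed DNA methylation, and CLASSY3 is best known for its work in ovules.

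The array as a whole was brighter in the treated samples: the sample median of deposited intensity was 0.323 ± 0.0128 after MS with sucrose and 0.177 ± 0.00806 in water (SD, n = 6 each; arbitrary units). A gene can therefore rise in intensity while keeping its place among the other probes. For this reason each gene is given both as deposited intensity and relative to the rest of the array, on a log2 scale after quantile normalization, which gives every sample the same distribution of values. Differences below are MS with sucrose minus water on that normalized log2 scale, with the SE of the limma fit, unless another scale is named. They understate changes of dim probes, because an offset of 0.0718 was added to each intensity before taking log2. The median difference of all 3439 probes was 0.00 after quantile normalization, 0.38 on the deposited scale and -0.29 with each sample centred on its median. Samples of the same number deviated together across the groups. Neighbouring numbers within a group lay close together on some probes described below, but no correlation is given for them. The labels do not say what the numbers mean. Fits with the number as a block, and with neighbouring numbers averaged, are among the alternatives.

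Of the 3 histone H3 genes, AT1G13370 had the largest rise relative to the array after MS with sucrose. Its intensity was 1.26, 1.56, 1.99, 1.69, 1.22 and 1.47 in samples 1 to 6 of MS with sucrose, against 0.621, 0.707, 0.540, 0.654, 0.641 and 0.568 in water samples 1 to 6. The groups did not overlap: the lowest treated sample, number 5, was still well above the highest water sample, number 2. Means were 1.53 ± 0.286 after MS with sucrose and 0.622 ± 0.0603 in water (SD, n = 6 each). On the normalized scale the difference was 0.81 (SE 0.14), and the groups did not overlap there either. Within same-numbered pairs it lay between 0.42 (number 5) and 1.44 (number 3), higher after MS with sucrose in 6 of 6. Among all probes, 10.3% were higher without overlap after normalization, and 29.5% on deposited intensities.

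The H3.1 gene AT5G65360 was brighter after MS with sucrose in every sample, but by very different amounts. Its intensity was 0.177, 0.325, 0.411, 0.547, 0.410 and 0.237 in samples 1 to 6 of MS with sucrose, against 0.159, 0.112, 0.103, 0.121, 0.109 and 0.128 in the water samples. The water samples lay close together, whereas treated sample 4 had the brightest signal of the gene and treated sample 1 hardly exceeded the brightest water sample. Means were 0.351 ± 0.134 after MS with sucrose and 0.122 ± 0.0203 in water (SD, n = 6 each). Relative to the array the difference was 0.44 (SE 0.19) and the groups overlapped. The same-numbered pairs ran from -0.50 in number 1, the only pair that was lower, to 1.06 in number 4. Leaving out each sample in turn gave differences from 0.32 (without treated sample 4) to 0.56 (without treated sample 1). The fit without treated sample 1 was the only one of these 12 in which the gene passed the threshold used for all probes, an adjusted p of 0.05. In that fit 595 of the 3439 probes were called higher and 661 lower. With all samples the gene did not pass. It was chosen by this contrast, so its passing in 1 fit is a description and not a test.

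The second H3.1 gene, AT1G09200, was brighter too, but its place among the other probes did not shift beyond the spread between samples. Its intensity was 0.210, 0.298, 0.294, 0.435, 0.359 and 0.289 in samples 1 to 6 of MS with sucrose, against 0.191, 0.179, 0.149, 0.164, 0.192 and 0.210 in the water samples. Treated sample 1 and water sample 6 were nearly level, and the other treated samples were clearly brighter. Means were 0.314 ± 0.0758 after MS with sucrose and 0.181 ± 0.0218 in water (SD, n = 6 each). The normalized difference was -0.07 (SE 0.12), with 3 of 6 pairs higher after MS with sucrose and 3 lower. On this scale the groups overlapped, and 1 treated sample, number 4, lay above all water samples.

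The remodeler gene chr31 was the member with the widest separation, and it went the other way. Its intensity was 0.427, 0.425, 0.146, 0.378, 0.274 and 0.490 in samples 1 to 6 of MS with sucrose, against 1.28, 1.16, 1.26, 1.30, 1.27 and 1.15 in the water samples. Every treated sample lay below every water sample although the sample median was higher after MS with sucrose. Means were 0.357 ± 0.126 after MS with sucrose and 1.24 ± 0.0656 in water (SD, n = 6 each). The normalized difference was -2.15 (SE 0.20), the eighth lowest of the 3439 probes and the fifth lowest of the 692 probes of 1 gene. Within same-numbered pairs it ran from -3.15 (number 3) to -1.61 (number 6), lower in 6 of 6. Of all probes, 4.36% were lower without overlap on deposited intensities and 12.6% on normalized values.

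**Figure D1:**
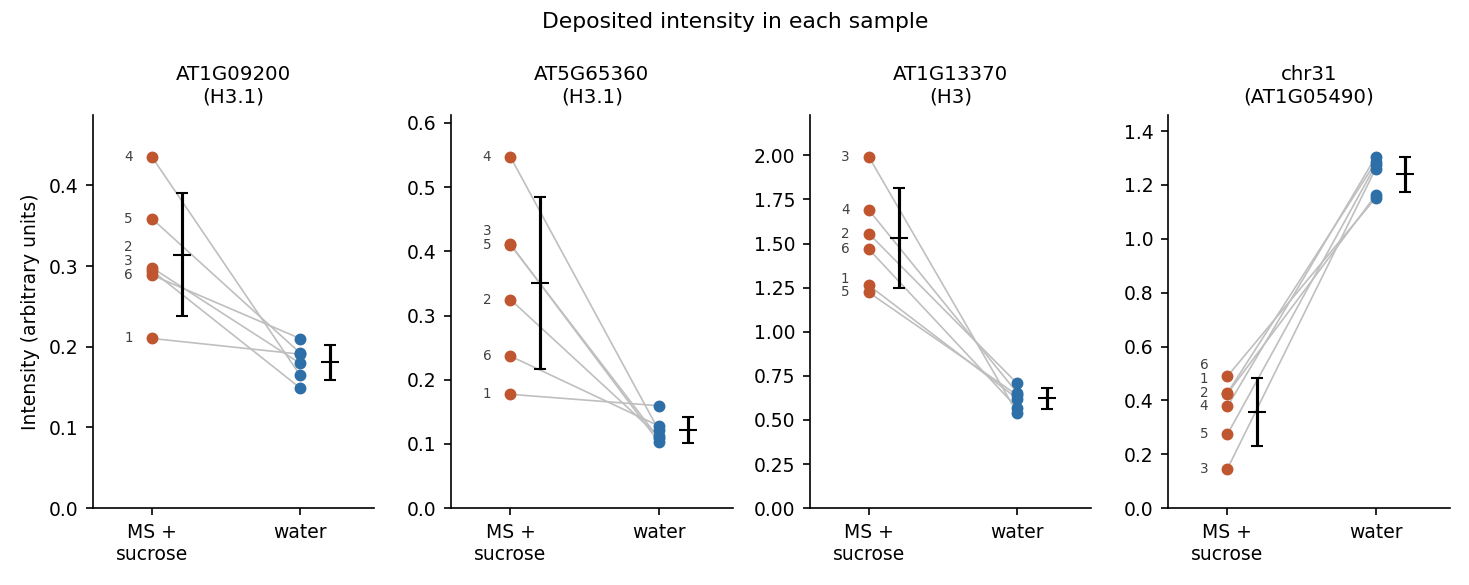
Deposited intensity (arbitrary units) of the 4 genes, 1 panel each with its own axis from 0, in the 6 samples of MS with sucrose (left, numbered) and the 6 water samples (right). Grey lines join samples of the same number, and black bars give the mean and SD. The 3 histone genes are brighter on the left and chr31 is dimmer, at 0.357 against 1.24 on average.

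Rank within a sample does not depend on how samples are scaled. AT1G13370 stood at a median percentile of 91.2 among the probes of its sample after MS with sucrose and of 83.8 in water. For AT5G65360 these medians were 54.5 after MS with sucrose and 37.0 in water, and the treated samples spread from the 32.8th to the 69.8th percentile. AT1G09200 stood at 47.8 after MS with sucrose and 51.1 in water. By contrast, chr31 was at 58.8 after MS with sucrose, ranging from 26.7 to 64.6, and at 91.5 in water, where its 6 samples lay between 90.6 and 92.4. In each water sample chr31 was thus among the brightest probes of the array.

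**Figure D2:**
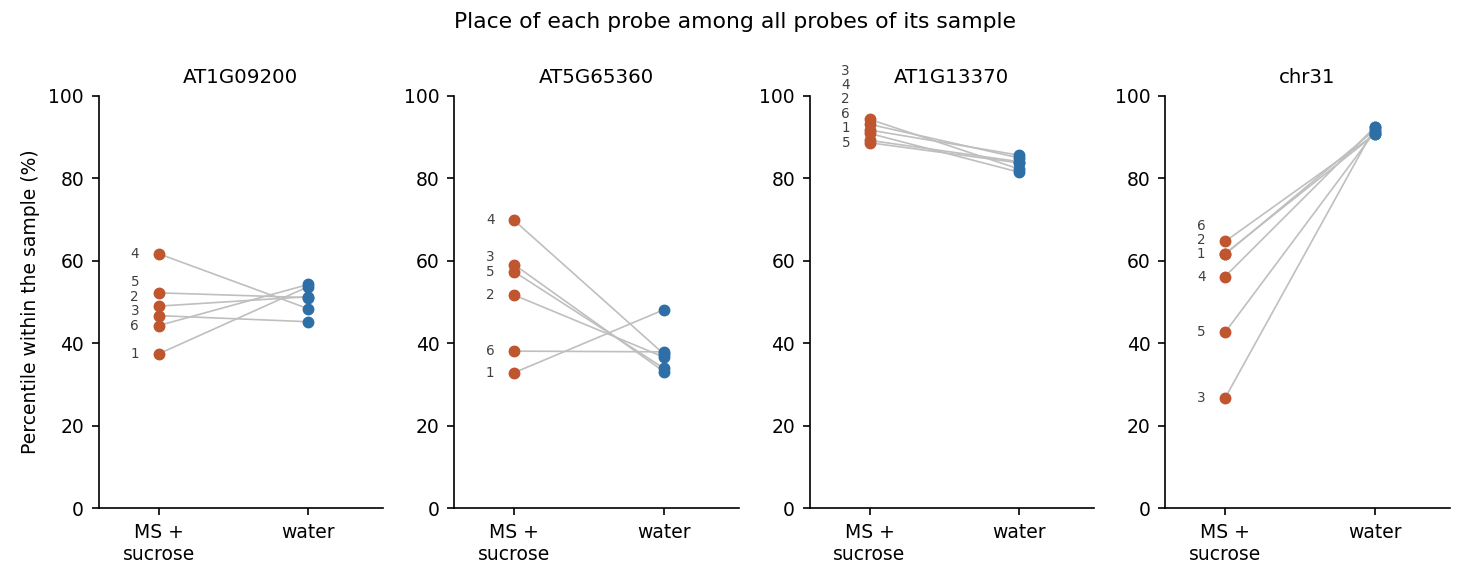
Percentile of each gene's probe among the 3439 probes of the same sample (0 is the dimmest), for MS with sucrose (left, numbered) and water (right), with grey lines joining same-numbered samples. AT1G13370 sits higher on the left in every pair, AT1G09200 does not separate, and chr31 lies near 91.5 in water and at 26.7 to 64.6 after MS with sucrose.

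The number of these genes past the threshold depended on the scaling. After quantile normalization 2 of the 4 passed, AT1G13370 as higher and chr31 as lower, where 37.5% of all probes passed in either direction. Cyclic loess (36.2% of all probes called) and median centring (51.1%) called the same pair of genes. The share under median centring can include probes at or near 0, which the centring itself shifts. On the deposited scale all 3 histone genes were called higher and chr31 lower, where 44.2% of all probes were called higher and 6.89% lower. AT1G13370 differed by 0.81 with quantile normalization, 0.86 with cyclic loess, 0.53 with median centring and 1.19 on the deposited scale. For AT5G65360 the corresponding values were 0.44, 0.40, 0.40 and 1.07. AT1G09200 was at -0.07, -0.09 and -0.08 in the first 3 scalings and at 0.59 on the deposited scale, so its sign depends on the scaling. The values for chr31 were -2.15, -2.16, -2.35 and -1.68. Less the median of all probes, the difference of AT1G13370 lay between 0.81 and 0.87 and that of chr31 between -2.15 and -2.06 in these 4 scalings. Here the deposited scale and median centring are equal by construction, because centring shifts each sample by a constant. They are therefore not separate readings. In the same measure AT5G65360 ran from 0.41 with cyclic loess to 0.68 on the deposited scale and with median centring. AT1G09200 ran from -0.08 with cyclic loess to 0.21 in those last 2 scalings, so its sign turned here too.

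**Figure D3:**
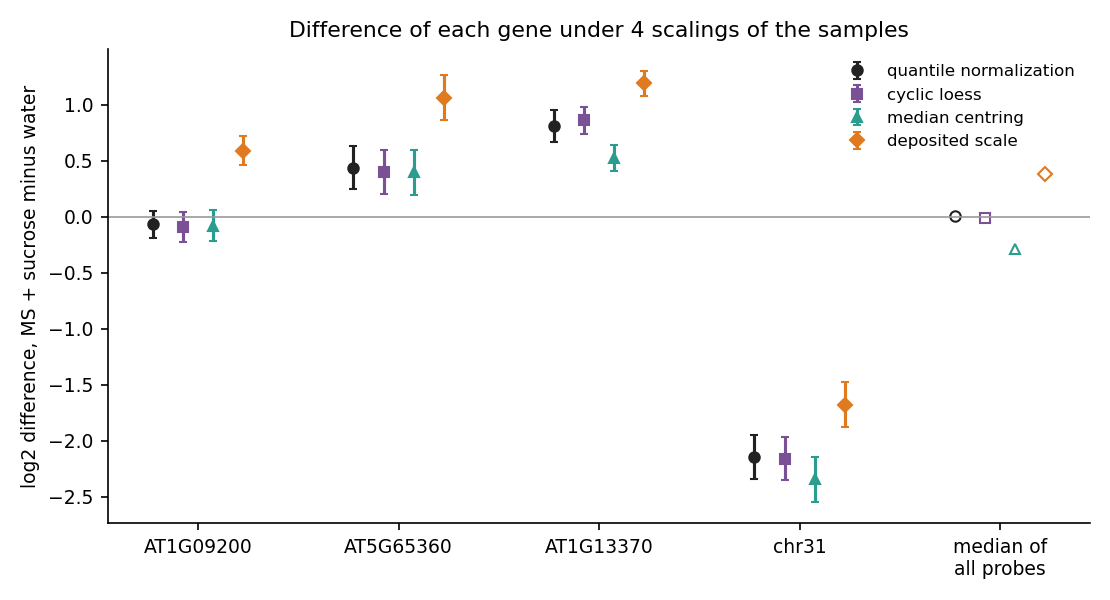
Log2 difference, MS with sucrose minus water, of the 4 genes under 4 ways of scaling the samples; filled marks with bars are the fitted difference and its SE (6 against 6 samples), and open marks are the median over all 3439 probes. AT1G13370 is above 0 and chr31 below 0 throughout, while AT1G09200 is above 0 only on the deposited scale.

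Ratios between 2 genes of the same sample do not depend on a scaling factor of that sample, and show how unequally the genes changed. A shift that differs between bright and dim probes is not removed by them. The log2 ratio of AT1G13370 to chr31 was 2.18 ± 0.82 after MS with sucrose and -1.0 ± 0.16 in water (SD, n = 6 each), a shift of 3.18 that was seen in 6 of 6 pairs. On average the 2 H3.1 genes did not move in step either. The log2 ratio of AT5G65360 to AT1G09200 was 0.10 ± 0.31 after MS with sucrose and -0.57 ± 0.21 in water. It was higher in 6 of 6 pairs, but in number 1 the ratio was nearly level. There AT5G65360 differed by 0.11 and AT1G09200 by 0.10 on the deposited scale. That of AT1G13370 to AT5G65360 was 2.20 ± 0.51 after MS with sucrose and 2.36 ± 0.26 in water, higher in 2 of 6 pairs. This last shift was smaller than the spread between samples. No offset was added for these ratios, so they are less sure where a probe is dim, as that of AT5G65360 in water.

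All 4 genes varied more between the treated samples than between the water samples, as did the array. The SD of the normalized log2 values of chr31 was 0.50 after MS with sucrose and 0.12 in water, against medians over all probes of 0.33 after MS with sucrose and 0.18 in water. AT5G65360 had an SD of 0.45 after MS with sucrose and 0.18 in water. The SD of AT1G13370 was 0.35 after MS with sucrose and 0.11 in water, and that of AT1G09200 was 0.26 after MS with sucrose and 0.11 in water. Treated sample 4 had the highest intensity of both H3.1 genes and treated sample 1 the lowest. Treated sample 3 had the highest intensity of AT1G13370 and the lowest of chr31.

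The array also held 5 probes annotated to several genes that include histone H3 genes, so a value there belongs to no single gene. These were taken from the annotation and not for their values, and were tested with limma over all 3439 probes. H3 genes are alike in sequence, and whether a probe also picks up RNA of H3 genes that its annotation does not name was not tested. After quantile normalization 1 of the 5 probes was higher, where 18.1% of all probes were, 2 were lower, where 19.3% were, and 2 did not pass. Their median difference was -0.01 beside the 0.00 of all probes. On the deposited scale 2 were higher and 1 was lower, where 44.2% of all probes were higher and 6.89% lower, with a median of 0.41 beside 0.38.

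Of the probes that include H3.1 genes, 1 rose and 1 did not pass. A probe shared by 2 further H3.1 genes, AT5G10390 and AT5G10400, had intensities of 0.405, 0.406, 0.505, 0.447, 0.565 and 0.557 in samples 1 to 6 of MS with sucrose, against 0.225, 0.263, 0.246, 0.235, 0.357 and 0.337 in the water samples. Samples 5 and 6 were the brightest in both groups. The groups did not overlap in intensity, where 29.5% of all probes were higher without overlap. Its normalized difference was nevertheless -0.01 (SE 0.10, adjusted p = 0.982 by limma), and on the deposited scale it was called higher, at 0.67, as AT1G09200 was. The other probe is shared by the H3.1 gene AT3G27360 and SDH2-1, a gene for a subunit of mitochondrial succinate dehydrogenase. It had 0.334, 0.418, 0.525, 0.540, 0.369 and 0.320 in samples 1 to 6 of MS with sucrose, against 0.169, 0.0994, 0.163, 0.135, 0.143 and 0.0913 in the water samples. It rose by 0.61 (SE 0.16, adjusted p = 0.0122 by limma) and by 1.25 on the deposited scale, and was higher in 6 of 6 pairs. With neighbouring sample numbers averaged, 3 against 3, it no longer passed (adjusted p = 0.0871 by limma), where 21.8% of all probes passed. AT1G13370 and chr31 passed in that fit, but they were chosen by this contrast, so this is no test of them. Which of the 2 genes of the shared probe carried the signal cannot be told apart.

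The 2 probes of H3.3 genes share AT4G40030 and AT5G10980, and after quantile normalization 1 of them was called. The probe that also names AT4G40040 had intensities of 3.20, 3.1, 1.90, 1.83, 1.42 and 1.56 in samples 1 to 6 of MS with sucrose, against 1.67, 1.80, 1.55, 1.5, 1.35 and 1.42 in the water samples. Samples 1 and 2 were the brightest in both groups and numbers 5 and 6 the dimmest, so that the spread followed the sample numbers. Its difference was 0.22 (SE 0.22, adjusted p = 0.464 by limma), and with median centring it was -0.26, so its sign depends on the scaling. The probe of AT4G40030 and AT5G10980 alone averaged 0.339 ± 0.0522 after MS with sucrose and 0.310 ± 0.0455 in water (SD, n = 6 each), with overlapping intensities. Relative to the array it fell by 0.57 (SE 0.11, adjusted p = 0.00192 by limma). On the deposited scale it was at 0.10 (adjusted p = 0.455 by limma), so its direction and call depend on the scaling. The log2 ratio of the first of these probes to the second was 2.62 ± 0.47 after MS with sucrose and 2.33 ± 0.19 in water, higher in 4 of 6 pairs. This shift of 0.29 was smaller than the spread between treated samples, and whether the 2 probes differed in response was not tested.

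The last joint probe is annotated to HTR12, which encodes the centromeric histone H3, and MGH3, which encodes an H3 of the male gamete. It fell after MS with sucrose, by 1.06 relative to the array (SE 0.16, adjusted p = 0.000335 by limma) and by 0.51 on the deposited scale (adjusted p = 0.0208 by limma). Its intensity was 0.273, 0.433, 0.616, 0.586, 0.452 and 0.470 in samples 1 to 6 of MS with sucrose, against 0.777, 0.758, 0.721, 0.761, 0.571 and 0.544 in the water samples. The treated sample was the dimmer one in 6 of 6 pairs, most of all in number 1. The probe was lower under each of the 4 scalings.

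**Figure D4:**
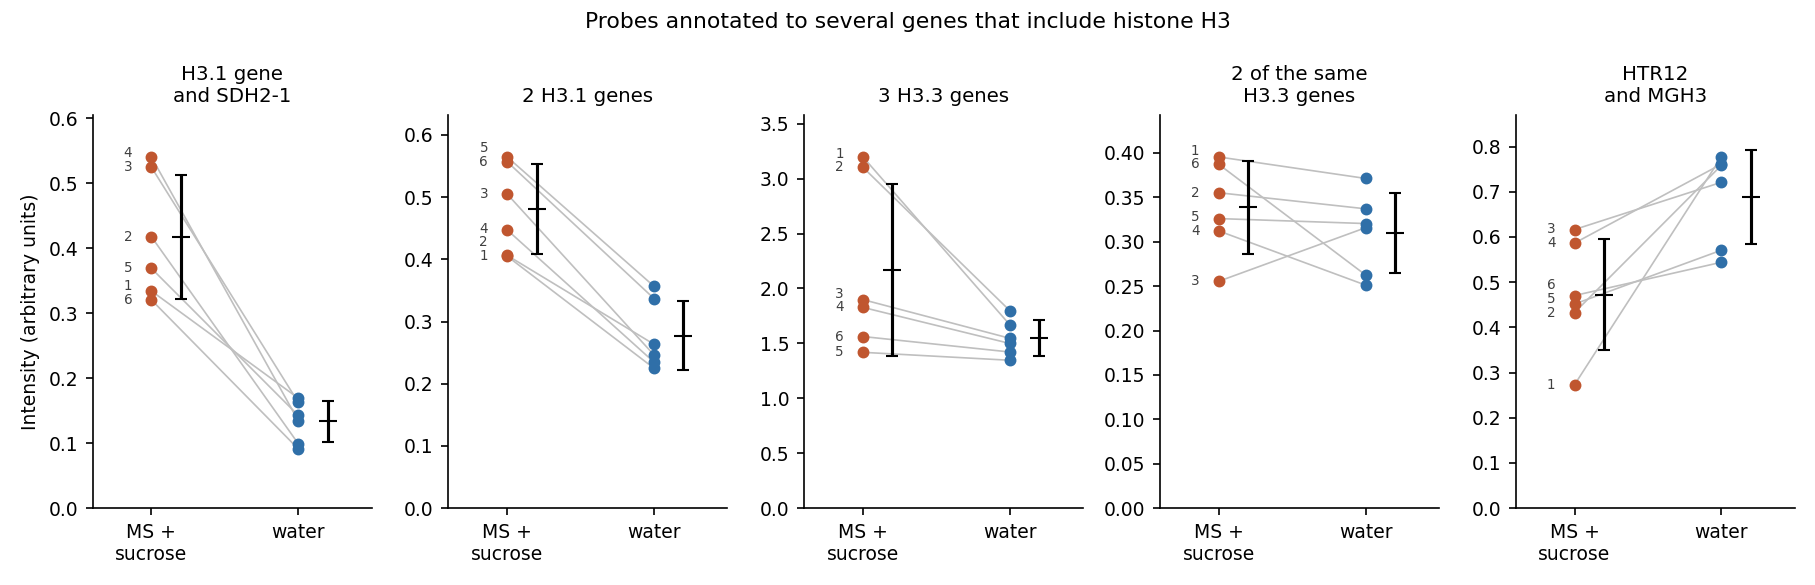
Deposited intensity (arbitrary units) of the 5 probes annotated to several genes that include histone H3, 1 panel each with its own axis from 0, for MS with sucrose (left, numbered) and water (right). Grey lines join same-numbered samples, and black bars give the mean and SD of 6 samples. Both probes of H3.1 genes are higher on the left without overlap in intensity, as were 29.5% of all probes. The probe of HTR12 and MGH3 is dimmer on the left in every pair.

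Little else of the chromatin machinery could be read. Lists of gene names were matched for histones (45 loci matched), other SNF2-type remodelers (29), RNA-directed and other DNA methylation (46), histone-modifying enzymes (91), histone chaperones (19), DNA replication (48) and the cell cycle (65). These are matches of names and not exact sizes of the classes: 75 loci matched through a synonym alone, and a name can belong to more than one gene. HAI2 and CLPR4 thus stand among the histones, DYL1 and AT2G33830 among the methylation genes, and MYB28 and AT1G66240 among the histone modifiers, and none of these had a probe to itself. Apart from the 3 histone members, 1 matched gene had a probe to itself: DME, which encodes a DNA glycosylase that removes methylated cytosine. Its probe was listed at 0 in 5 of 6 samples of MS with sucrose and in 6 of 6 water samples, so no level is drawn from it, and its difference of 0.08 was not called (adjusted p = 0.447 by limma). Of the listed genes with a probe, 1 of 4 was called higher (AT1G13370) and 0 lower after quantile normalization, where 18.1% of all probes were called higher and 19.3% lower. Because 3 of these 4 are members chosen by this same contrast, the count is no separate result. None of the genes on the replication and cell cycle lists had a probe to itself, so whether H3.1 levels went along with them was not tested. The 9 organ markers for root, seed and green tissue had no such probe either. Of these, RCA, which encodes the rubisco activase of chloroplasts, lies on 2 probes that it shares with AT1G73110. One averaged 1.14 ± 0.0488 after MS with sucrose and 0.771 ± 0.0948 in water, and the other 0.0236 ± 0.0340 after MS with sucrose while listed at 0 in all water samples (SD, n = 6 each). Neither was called after quantile normalization (adjusted p = 0.285 and 0.164 by limma), and the signal belongs to no single gene, so the organ was not settled from them. In RNA of many cells, a change in the number of cells that express a gene and a change of its RNA per cell cannot be told apart.

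For each member, the 3 most similar genes were taken among 627 others with a probe of their own, by the mean absolute difference of normalized log2 values after centring each gene on its own mean over the 12 samples. Closest to AT1G13370 were AT4G31470 (0.15), AT3G53470 (0.15) and the photosystem II subunit gene PSBW (0.17), each called higher after quantile normalization. In deposited intensity PSBW averaged 49.1 after MS with sucrose and 44.3 in water. Closest to AT5G65360 were AT5G35100 (0.13), AT5G40030 (0.17) and AT4G01310 (0.20). Closest to AT1G09200 were AT5G63490 (0.09), AT3G17950 (0.10) and AT1G18290 (0.11), none of which was called; AT3G17950 was close to 0 in intensity, so its profile is nearly flat. Near chr31 no profile was as close: AT2G21720 (0.37), APTX (0.39), the gene of an aprataxin-like protein, and AT4G25290 (0.40) came first. All 3 of these were called lower after quantile normalization. The distance includes the group difference itself, so calls of the nearest genes follow largely from how they were picked and are no separate result. The median distance of all genes was 0.48 from AT1G13370, 0.42 from AT5G65360, 0.35 from AT1G09200 and 1.10 from chr31, and the samples share their arrays' distributions and numbering.

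With the group difference taken away, the 2 H3.1 genes ranked closer to each other. In deviations from each group's mean, AT1G09200 was the third closest of the 627 genes to AT5G65360, at a mean absolute difference of 0.14, where the median gene was at 0.32. Seen from AT1G09200, AT5G65360 was at rank 32 and AT1G13370 at rank 72. Nearest in this measure were AT5G49840 to AT1G09200 (0.08), AT5G19750 to AT5G65360 (0.11), AT5G40030 to AT1G13370 (0.10) and SIRB, which encodes an enzyme of siroheme synthesis, to chr31 (0.11). From chr31 the histone genes lay at 0.31 to 0.43, where the median gene was at 0.31.

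**Figure D5:**
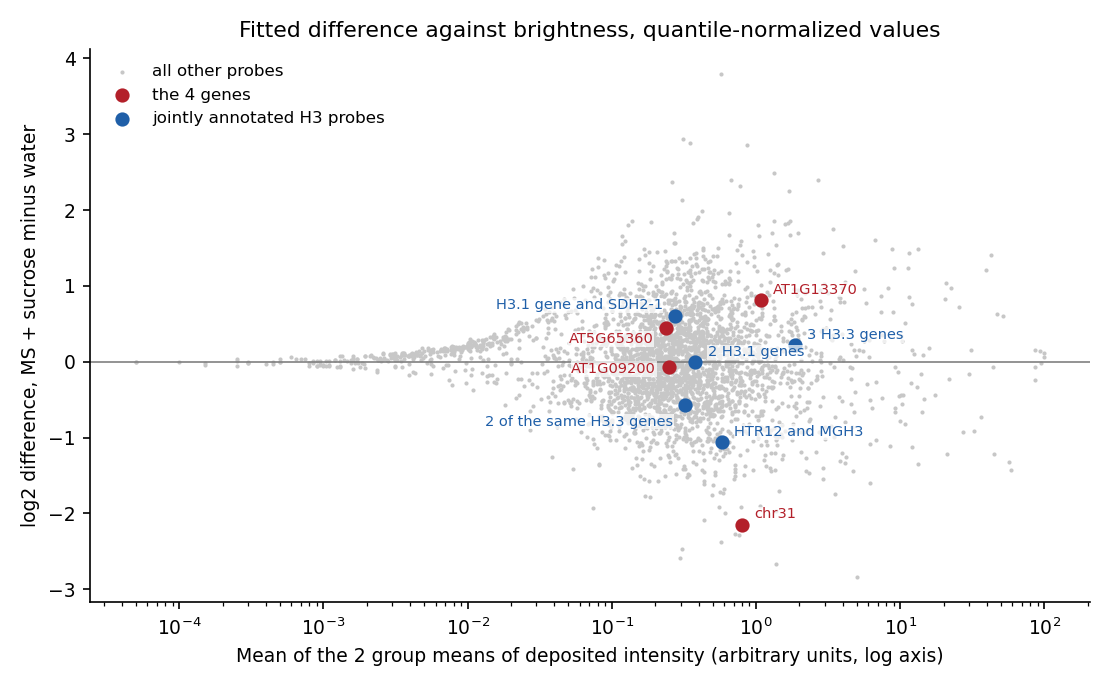
Fitted log2 difference, MS with sucrose minus water, on quantile-normalized values against the mean of the group means of deposited intensity (arbitrary units, log axis). Grey points are the other probes, red points the 4 genes and blue points the 5 jointly annotated histone H3 probes; 105 probes of the 3439 with a mean of 0 are not drawn. The gene chr31 lies at -2.15, near the lower edge, and the histone H3 probes lie between -1.06 and 0.81.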

How the data were processed

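The authors deposited a linear intensity for each of 3439 probes in 12 samples; neither labels nor files state how background was treated or samples were scaled. Exact 0 made up 13.6% of values, 2 to 8 probes per sample sat at a common top value, and precision is limited by how many arrays there are. Intensities were taken as log2(intensity + 0.0718), the offset being the 10th percentile of the values above 0, and quantile normalized. All probes were fitted with limma 3.58.1 in R 4.3.3 (lmFit, eBayes with trend, two-sided, 6 against 6), with Benjamini-Hochberg adjustment over 3439 probes and a threshold of 0.05; the fit was tested on simulated data. Figures were drawn with matplotlib 3.10.9.

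Platform annotation gave 692 probes 1 gene, 870 several and 1877 none, with names updated through the TAIR10.1 gene table. The files give no probe sequences. The members, lists and tests were chosen with earlier results of these data known. List genes were matched by symbol or locus. Named are the members, listed genes with an own probe, the joint histone H3 probes (added after the annotation was read), and the 3 most similar genes per member.

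Same-numbered samples of the 2 groups correlated, in deviations from the group means across probes, at 0.174 to 0.390 in 6 pairs, and 11 of 12 samples were closest to their own number, so the numbers were taken to pair the samples; the labels do not say so. Alternatives were other scalings, offset, zeros as missing, a filter on dim probes, a replicate block, averaged neighbouring numbers, no variance trend, and each sample left out.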

Additional observations from a re-analysis of the deposited data

Results flagged for a closer look

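Of 20 sets of 6 values, 1 had a single value far away from the rest, and about 1 would be so by chance. The probe of DME was above 0 in sample 5 of MS with sucrose only, so the gap was the whole range (1).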

How the results depend on the processing

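On the deposited scale AT1G09200 was at 0.59, AT5G65360 at 1.07, AT1G13370 at 1.19 and chr31 at -1.68, with 1519 probes higher and 237 lower and 3 listed genes higher; the probes of 2 H3.3 genes (0.10) and of 2 H3.1 genes (0.67) changed sign. Under median centring AT1G13370 was at 0.53, DME changed sign to -0.54 and the probe of 3 H3.3 genes to -0.26. There 1271 probes and 1 listed gene, DME, were lower. DME was at 0 in all but 1 sample, so its value and call there follow from the centring itself. In all, 315 probes were at 0 in 10 or more samples, and how many of the 1271 this concerns was not counted. With neighbouring numbers averaged, 349 probes were higher and 402 lower, and the probe of AT3G27360 and SDH2-1 no longer passed; the smaller number of samples belongs to this setting, and causes were otherwise not tested. The replicate block left the differences of the members as they were (SE 0.13 for AT1G09200, 0.22 for AT5G65360, 0.14 for AT1G13370 and 0.21 for chr31), gave 638 probes higher and 678 lower, and changed no call of the 4 genes, the joint histone probes or DME. Leaving out each sample in turn gave -0.15 to 0.00 for AT1G09200, 0.32 to 0.56 for AT5G65360, 0.72 to 0.90 for AT1G13370, -2.25 to -2.0 for chr31, 544 to 619 probes higher, 589 to 673 lower, and 1 to 2 listed genes higher, 2 without sample 1 of MS with sucrose, where AT5G65360 passed. No other probe of a single member gene existed to try. Intensities near the offset limit what dim probes can show.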
